A study of Mus musculus with 115 samples.

Results

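The genes described here encode parts of the machinery that lets calcium into heart mitochondria and that opens under calcium overload: Ppif, Vdac1, Vdac2, Vdac3, Mcu and Micu2. They were taken by symbol from a mouse transcriptome panel of 23930 amplicons, each counted under 1 gene symbol. Of the 6 genes named, 5 had a row, and Vdac3 was not analysed here. All 5 were abundant enough to be tested, with between 814 reads (Mcu in wild type heart 80) and 47628 reads (Vdac1 in knockout ND6 heart 37) per heart.

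Calcium crosses the outer mitochondrial membrane through the voltage-dependent anion channels (VDACs), which also carry ADP, ATP and other metabolites. It crosses the inner membrane through the calcium uniporter, whose pore is Mcu and whose opening is set by regulatory proteins of the Micu family that sense calcium between the membranes. When matrix calcium and oxidants are high, a non-selective inner membrane pore can open, an event called the permeability transition that causes swelling and cell death in the injured heart. Cyclophilin D, the product of Ppif, is a matrix isomerase that makes this opening easier, and Ant1, the ADP/ATP carrier encoded by Slc25a4, is a candidate component of the pore.

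Whole heart RNA came from 3 genotypes on C57BL/6JEiJ: mice without Ant1 that also carried the P25L change in mitochondrially encoded ND6, a subunit of complex I (KO ND6); mice without Ant1 (KO); and unmodified mice (WT). All had received 2.5e+11 vector genomes of AAV2/9 into the pericardium, carrying Gfp with mouse Ant1 (Ant1 vector) or Gfp alone (control vector) behind a promoter that the labels abbreviate as Des. Of 112 libraries, 2 (80a and 80b) were placed in no group and the others were summed to 22 hearts. Given the Ant1 vector were 3 KO ND6, 4 KO and 3 WT hearts. Given the control vector were 3 KO ND6, 3 KO and 4 WT hearts. WT Ant1 vector heart 80 rests on 2 libraries, 80c and 80d. It shares its title number with 80a and 80b, whose vector label goes against their title code. KO ND6 hearts 61 and 91 are labelled with the control vector but carry the title code IN, which the hearts labelled with the Ant1 vector carry. They were kept as a group of their own. The labels do not explain the title codes, IN and NI. No hearts without a vector were analysed here, so the vector itself is common to all groups. Ages per heart are not in the labels used here. Nothing in the labels says how the numbers in the titles relate to animals, so p-values measure the spread between these numbered samples.

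Heart totals ran from 16827518 to 54779297 reads. Slc25a4 lay between 0.219 and 0.851 CPM (read counts scaled to equal library totals after adjustment by the trimmed mean of M values) in control vector KO ND6 hearts and between 0.331 and 2.03 CPM in control vector KO hearts, against 8464 to 11380.4 CPM in control vector WT hearts. Among the Ant1 vector KO ND6 hearts it stood at 55.6 and 66.7 CPM in hearts 37 and 5 but at 0.732 CPM in the heart labelled 8, and in hearts 61 and 91 it stood at 169 and 151 CPM. The Slc25a4 levels of hearts 8, 61 and 91 thus differ from those of the other KO ND6 hearts with the same vector label. The reason was not tested. Hearts 27 (KO) and 37 (KO ND6), both labelled with the Ant1 vector and counted together in tables that held no other heart, stood apart. Their repeat libraries spread more than those of any other heart for Ppif, Vdac2 and Micu2, though not for Mcu, nor for Vdac1 in heart 37. The coefficient of variation for Micu2 was 40.1% in heart 27 and 25.1% in heart 37, against a median of 8.42% over hearts.

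The 5 genes lie on 3 chromosomes (GRCm38, the build mm10 names; GENCODE vM21). Ppif is at chr14:25694154-25700468 on the plus strand, Vdac2 at chr14:21825238-21845879 on the plus strand and Micu2 at chr14:57916261-57999262 on the minus strand. Vdac1 is at chr11:52360860-52389397 on the plus strand and Mcu at chr10:59446984-59616692 on the minus strand. The position of the amplicons within these genes was not at hand, so a difference in a particular exon or isoform could not be looked at, nor could reads shared with processed copies of the VDAC genes.

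The upstream sequences of the 3 genes that differed between Ant1-null and WT hearts when all groups were averaged are shown because 2 of these genes, Ppif and Vdac1, were higher and the other, Micu2, was lower. Each is the 250 bases before the RefSeq start (GRCm38.p6), read 5′ to 3′ on the gene's strand, with capitals marking matches, on either strand, to the letters of a searched motif. They are Ppif at chr14:25693920-25694169 (plus), Vdac1 at chr11:52360601-52360850 (plus, the first of its RefSeq starts) and Micu2 at chr14:57999263-57999512 (minus).
Ppif: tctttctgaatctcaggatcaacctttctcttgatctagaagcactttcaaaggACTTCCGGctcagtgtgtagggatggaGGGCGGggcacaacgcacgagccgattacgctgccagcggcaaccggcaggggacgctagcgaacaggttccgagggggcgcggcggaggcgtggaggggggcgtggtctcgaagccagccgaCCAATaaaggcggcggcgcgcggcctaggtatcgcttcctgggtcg
Vdac1: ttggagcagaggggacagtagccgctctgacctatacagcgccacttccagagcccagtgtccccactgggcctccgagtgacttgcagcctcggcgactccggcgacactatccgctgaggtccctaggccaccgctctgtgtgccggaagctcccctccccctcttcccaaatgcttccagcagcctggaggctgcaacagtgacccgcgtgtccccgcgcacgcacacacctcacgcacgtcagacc
Micu2: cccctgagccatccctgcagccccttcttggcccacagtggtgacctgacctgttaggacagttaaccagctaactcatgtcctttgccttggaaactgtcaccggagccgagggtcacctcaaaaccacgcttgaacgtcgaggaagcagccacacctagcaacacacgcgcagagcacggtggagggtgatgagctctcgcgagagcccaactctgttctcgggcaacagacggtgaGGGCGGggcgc
The searched letters were TCAAGGTCA for the ERR family, GCATGCGC for the core of the NRF1 site, CCGGAAGT for GABPA, GGGCGG for SP1, CCAAT and TATAAA. Upstream of Ppif there was 1 match each to CCGGAAGT, GGGCGG and CCAAT, upstream of Micu2 1 match to GGGCGG, and upstream of the first Vdac1 start none to any of them. Upstream of the other RefSeq start of Vdac1, not shown, there were 3 matches to GGGCGG. Over 32536 upstream windows of the same length, CCGGAAGT occurred in 2.9%, GGGCGG in 33.0% and CCAAT in 33.8%. GGGCGG was thus found upstream of a start of each of these genes, for Vdac1 only at the start not shown. Whether any of these letters bears on the levels of the genes was not tested.

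Taking the 13 Ant1-null hearts (KO ND6 and KO, both vectors, without hearts 61 and 91) against all WT hearts, each genotype and vector group counting equally, Ppif and Vdac1 rose and Micu2 fell, while Vdac2 and Mcu did not pass. That is 2 of 5 members higher and 1 lower (edgeR quasi-likelihood F-test, Benjamini-Hochberg adjusted over all 15403 genes, threshold 0.05), where 15.6% of all genes tested were higher and 14.5% lower, or 30.1% in all. With so few members this count is given as a description and not as a property of the set. The median log2 change of the 5 members was 0.16, against -0.02 over all genes tested.

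**Figure D1:**
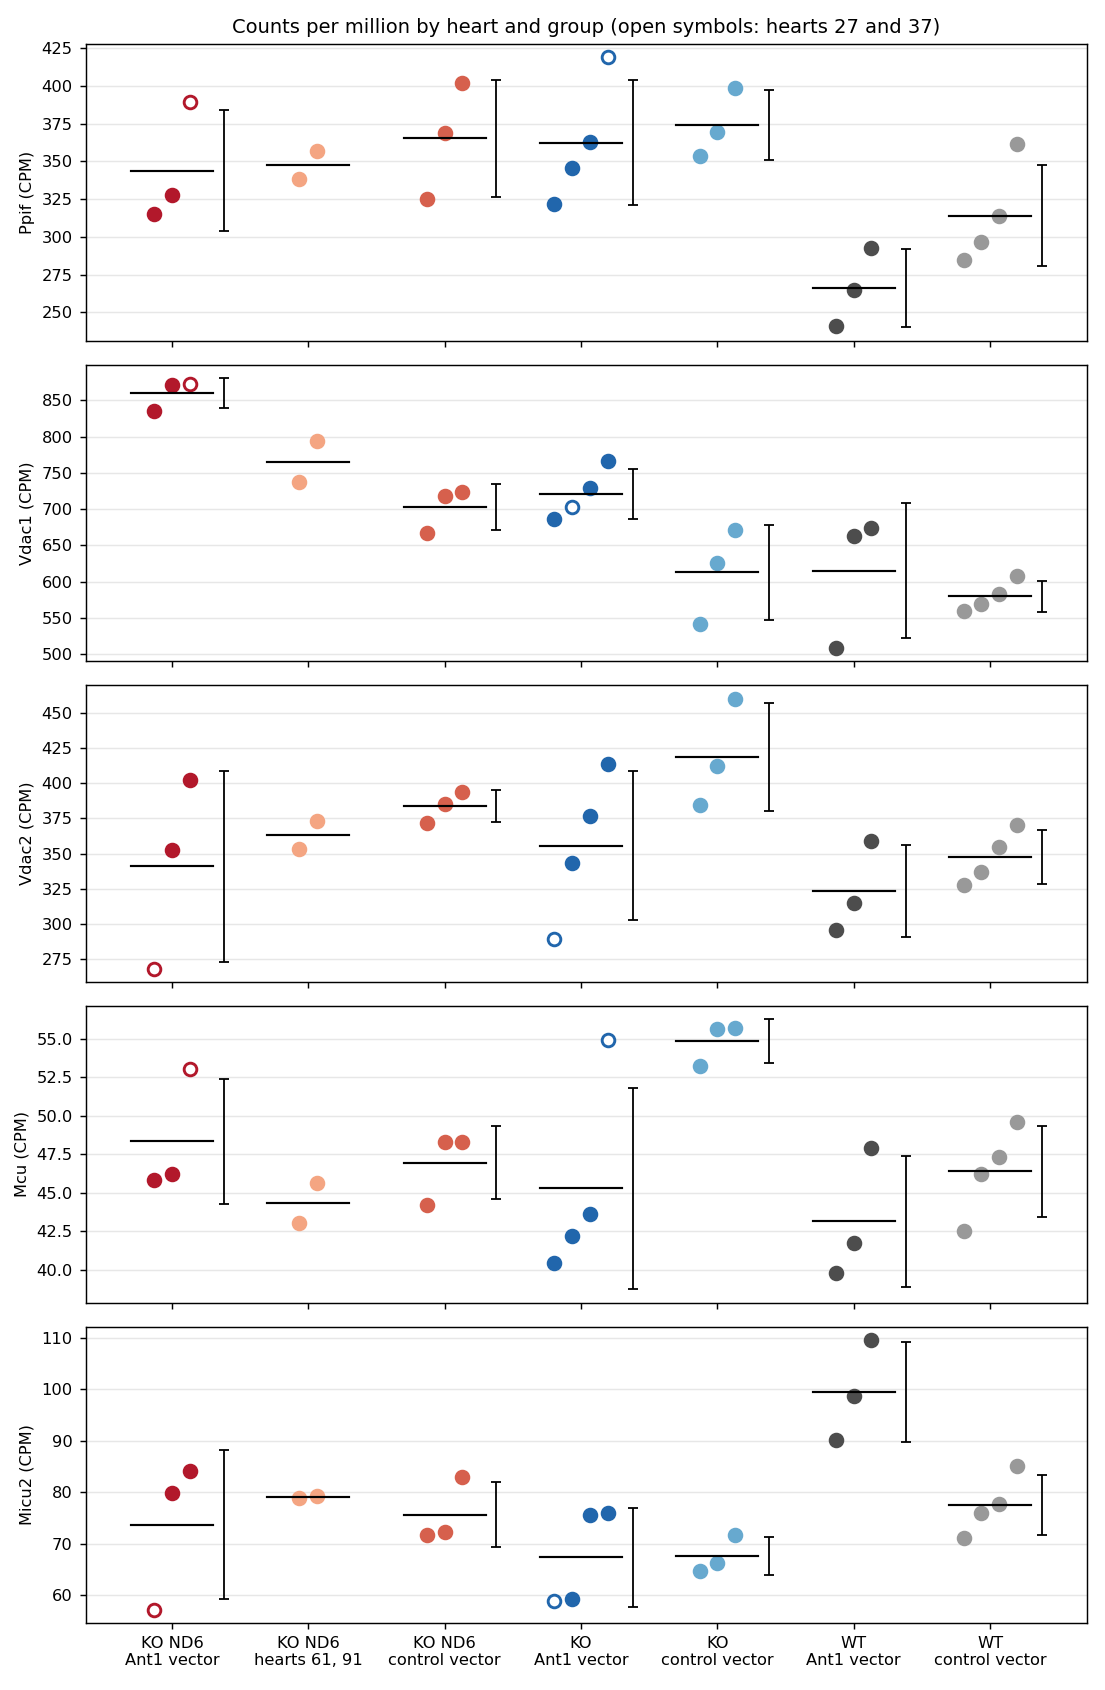
CPM of the 5 genes in each of 22 hearts (points), by genotype and vector, with group means (lines) and SD (bars, groups of 3 or 4); the vertical axes do not start at 0. Ppif in the 3 WT hearts with the Ant1 vector lies between 241 and 293 CPM, below every Ant1-null heart, and Micu2 in the same hearts lies between 90.1 and 109.6 CPM, above every other heart.

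Ppif, the cyclophilin D gene, was higher in Ant1-null than in WT hearts, and its averaged change passed under all 31 alternatives tried, with adjusted p up to 0.0121. Its level was 389.5, 315 and 328 CPM in KO ND6 hearts 37, 5 and 8 given the Ant1 vector, and 402, 369 and 325 CPM in the 3 KO ND6 hearts given the control vector, with 357 and 338 CPM in hearts 61 and 91. In KO hearts it was 363, 346, 322 and 419 CPM with the Ant1 vector and 353.5, 399 and 369.8 CPM with the control vector. WT hearts had 293, 265 and 241 CPM with the Ant1 vector and 361, 314, 297 and 284.5 CPM with the control vector.

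All 7 Ant1-null hearts given the Ant1 vector lay above the 3 WT hearts given it, whereas with the control vector WT heart 23, at 361 CPM, lay inside the Ant1-null range. By group mean the order from the top was KO control vector (374 ± 23.0), KO ND6 control vector (365 ± 38.5), KO Ant1 vector (362 ± 41.4), hearts 61 and 91 (347 CPM), KO ND6 Ant1 vector (344 ± 39.9), WT control vector (314 ± 33.7) and WT Ant1 vector (266 ± 25.8; all SD of CPM). The Ant1-null groups did not differ from each other beyond their SD.

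The log2 change of Ppif averaged over groups was 0.32 ± 0.07 (SE, 1.25-fold, adjusted p = 0.000903), with 7 of 13 Ant1-null hearts above the highest WT heart and none below the lowest. With the Ant1 vector the change was 0.45 ± 0.11 in KO against WT hearts (1.36-fold, adjusted p = 0.0105) and 0.37 ± 0.11 in KO ND6 against WT hearts (1.29-fold, adjusted p = 0.0255). Both rest in part on single hearts: without WT heart 83 the adjusted p was 0.0758 and 0.12, and the second was 0.126 without KO ND6 heart 37 and 0.0684 without WT heart 81. With the control vector the change did not pass, at 0.25 ± 0.11 in KO hearts (adjusted p = 0.117) and 0.22 ± 0.11 in KO ND6 hearts (adjusted p = 0.19).

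Vdac1, which encodes the most studied VDAC isoform, was highest in the KO ND6 hearts given the Ant1 vector. These had 872, 872 and 836 CPM (hearts 37, 5 and 8). The KO ND6 hearts given the control vector had 667, 719 and 724 CPM, with 737 and 794 CPM in hearts 61 and 91. KO hearts had 687, 766, 729 and 703 CPM with the Ant1 vector and 625.3, 542 and 671 CPM with the control vector. In WT hearts the values were 674, 664 and 509 CPM with the Ant1 vector and 608, 559, 569 and 583 CPM with the control vector.

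The 3 KO ND6 hearts given the Ant1 vector were the 3 highest of all 22 hearts, at 860 ± 20.9 CPM. Hearts 61 and 91 followed with a mean of 766 CPM, then the KO Ant1 vector hearts at 721 ± 34.5 CPM and the KO ND6 control vector hearts at 703 ± 31.7 CPM, which did not differ beyond their SD. The WT Ant1 vector hearts (615 ± 92.5 CPM), the KO control vector hearts (613 ± 65.4 CPM) and the WT control vector hearts (580 ± 21.0 CPM) came last and overlapped each other. Of 13 Ant1-null hearts, 9 lay above the highest WT heart.

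Averaged over groups the log2 change of Vdac1 from WT was 0.27 ± 0.05 (1.2-fold, adjusted p = 0.00085). It was 0.48 ± 0.09 in KO ND6 against WT hearts with the Ant1 vector (1.40-fold, adjusted p = 0.00115) and 0.28 ± 0.09 in KO ND6 against WT hearts with the control vector (1.21-fold, adjusted p = 0.0393). The first did not pass with the library table (0.40, adjusted p = 0.0918) or the table set (0.39, adjusted p = 0.153) as a covariate. The second did not pass with the table set as a covariate (0.31, adjusted p = 0.11) or without low-count filtering (adjusted p = 0.0733), nor when KO ND6 heart 20, 21 or 22 or WT heart 24, 25 or 70 was left out, with adjusted p between 0.0561 and 0.144. In KO against WT hearts Vdac1 did not pass, at 0.23 ± 0.09 with the Ant1 vector (adjusted p = 0.106) and 0.08 ± 0.09 with the control vector (adjusted p = 0.591).

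Vdac2, the VDAC isoform that binds the death effector Bak at the outer membrane, did not pass in any comparison. It was at 268, 402 and 352 CPM in KO ND6 hearts 37, 5 and 8 given the Ant1 vector and at 371, 385 and 394 CPM in those given the control vector, with 373 and 353 CPM in hearts 61 and 91. KO hearts had 344, 414, 376.5 and 289 CPM with the Ant1 vector, the last in heart 27, and 384, 412 and 460.0 CPM with the control vector. WT hearts had 359, 295 and 315 CPM with the Ant1 vector and 370.5, 337, 327.5 and 354 CPM with the control vector.

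The lowest levels of Vdac2 among all 22 hearts were those of hearts 37 and 27, and the highest was in a KO control vector heart. By group mean, KO control vector hearts (419 ± 38.3 CPM) came first and KO ND6 control vector hearts (384 ± 11.4 CPM) second, and WT Ant1 vector hearts (323 ± 32.6 CPM) last. Averaged over groups the log2 change from WT was 0.16 ± 0.07 (adjusted p = 0.117), and in KO against WT hearts with the control vector, where the groups did not overlap, it was 0.27 ± 0.12 (adjusted p = 0.136). Without hearts 27 and 37 the first became 0.21 (adjusted p = 0.00574) and the second 0.26 (adjusted p = 0.0324). With these hearts kept and the tables entered as a covariate on libraries, the second was 0.21 (adjusted p = 0.0116). The first did not pass under 28 of 31 alternatives (adjusted p up to 0.481), nor the second under 16 of 18 (adjusted p up to 0.395).

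Mcu, the pore of the uniporter, varied least of the 5 genes, with the highest heart 1.4 times the lowest. Its level was 53.0, 46.2 and 45.8 CPM in Ant1 vector KO ND6 hearts and 48.3, 48.3 and 44.2 CPM in control vector KO ND6 hearts, with 43.0 and 45.6 CPM in hearts 61 and 91. Ant1 vector KO hearts had 43.6, 40.4, 42.2 and 54.9 CPM, the last in heart 27, and control vector KO hearts had 55.6, 53.2 and 55.7 CPM. Ant1 vector WT hearts had 47.9, 41.7 and 39.8 CPM and control vector WT hearts 49.6, 46.2, 47.3 and 42.5 CPM.

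The 3 control vector KO hearts lay above all WT hearts, and outside that group only hearts 27 and 37, at 54.9 and 53.0 CPM, exceeded the highest WT heart. The order by mean was control vector KO (54.8 ± 1.42 CPM), Ant1 vector KO ND6 (48.3 ± 4.05), control vector KO ND6 (46.9 ± 2.40), control vector WT (46.4 ± 2.97), Ant1 vector KO (45.3 ± 6.56), hearts 61 and 91 (44.3 CPM) and Ant1 vector WT (43.1 ± 4.24). Below control vector KO, neighbours did not differ beyond their SD. No comparison of Mcu passed: the log2 change in control vector KO against WT hearts was 0.24 ± 0.10 (adjusted p = 0.0991), and averaged over groups 0.12 ± 0.06 (adjusted p = 0.125). Without hearts 27 and 37 the first was 0.23 with an adjusted p of 0.0221. Under 17 of 18 alternatives the first did not pass, with adjusted p up to 0.232.

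Micu2, which encodes a calcium-sensing gatekeeper of the uniporter, was the member that differed from WT in the opposite direction. It was at 57.1, 84.1 and 79.9 CPM in KO ND6 hearts 37, 5 and 8 given the Ant1 vector and at 71.6, 72.3 and 82.9 CPM in those given the control vector, with 79.3 and 78.8 CPM in hearts 61 and 91. KO hearts had 75.9, 59.3, 75.5 and 58.8 CPM with the Ant1 vector and 66.3, 71.7 and 64.7 CPM with the control vector. WT hearts had 90.1, 98.7 and 109.6 CPM with the Ant1 vector and 76.0, 85.1, 71.1 and 77.8 CPM with the control vector.

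The WT hearts given the Ant1 vector were the 3 highest of all 22, while the WT hearts given the control vector overlapped the Ant1-null hearts. With the Ant1 vector Micu2 fell by 0.56 ± 0.12 on the log2 scale in KO against WT hearts (1.48-fold lower, adjusted p = 0.00462) and fell by 0.44 ± 0.13 in KO ND6 against WT hearts (1.35-fold lower, adjusted p = 0.0225). Neither passed with the library table (-0.41, adjusted p = 0.0936, and -0.25, adjusted p = 0.451) or the table set (-0.39, adjusted p = 0.13, and -0.22, adjusted p = 0.491) as a covariate. The KO ND6 change also did not pass without heart 37 (adjusted p = 0.123) or without WT heart 83 (adjusted p = 0.106). With the control vector the groups overlapped and the log2 changes were -0.20 ± 0.12 in KO hearts (adjusted p = 0.296) and -0.04 ± 0.12 in KO ND6 hearts (adjusted p = 0.89). Averaged over groups Micu2 fell by 0.31 ± 0.07 (1.24-fold lower, adjusted p = 0.00341), with 5 of 13 Ant1-null hearts below the lowest WT heart and none above the highest.

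**Figure D2:**
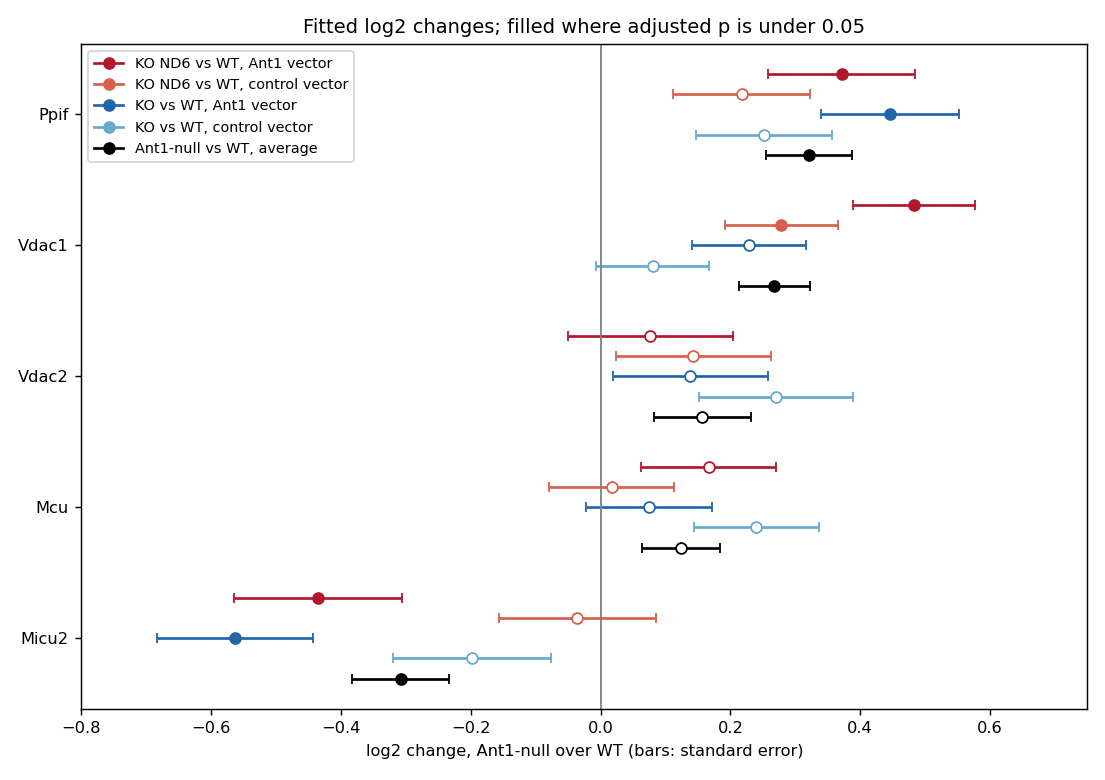
Log2 change of Ant1-null over WT hearts (horizontal axis, with standard error) for each gene, in the 4 genotype comparisons and their average; filled points passed an adjusted p of 0.05. Ppif and Vdac1 lie right of 0 in all of them, Micu2 lies left, and the Micu2 points of the Ant1 vector (-0.56 and -0.44) lie farther out than those of the control vector (-0.20 and -0.04).

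Counted by comparison, members passing the test were 0 of 5 in KO against WT hearts with the control vector, where 14.4% of all genes passed. DESeq2 also called 0. In edgeR 3 of 5 members had an unadjusted p under 0.05 there, as did 4388 of all 15403 genes. Members passing after adjustment were 1 of 5 in KO ND6 against WT hearts with the control vector, where 12.7% passed. With the Ant1 vector there were 2 of 5 in KO against WT hearts, where 9.89% passed, and 3 of 5 in KO ND6 against WT hearts, where 19.5% passed. Groups did not overlap for 2 of 5 members in each of the control vector comparisons (26.7% of all genes in KO and 26.3% in KO ND6 against WT) and for 3 of 5 in each of the Ant1 vector comparisons (19.9% and 34.1%). These comparisons share WT hearts within a vector, so they are not separate observations of the WT level.

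The library tables bear on these values, because each set of tables held hearts of only some of the groups, all labelled with the same vector. Ant1-null and WT hearts met in 3 sets. Folds within sets were taken from means of log2 CPM. In the set with KO heart 20 and the 3 WT Ant1 vector hearts, the null heart had 363 CPM of Ppif against a WT mean of 266 CPM (1.37-fold) and 75.9 CPM of Micu2 against 99.5 CPM (0.766-fold). In the set with KO heart 35 and WT hearts 23, 24 and 25 the same folds were 1.09 for Ppif and 0.859 for Micu2, and in the set with KO ND6 heart 22 and WT heart 70 they were 1.14 and 1.07. Vdac1 was 1.12-fold, 1.08-fold and 1.24-fold higher in these 3 sets. Ppif, Vdac1, Vdac2 and Mcu were therefore higher in the null heart in each of the 3 sets, and Micu2 was lower in 2 of them, with 1 null heart of the compared groups in each set and no test within single sets. Hearts 61 and 91 were counted in the same set as WT heart 70 and were above it for Ppif, Vdac1, Mcu and Micu2. Vdac2 was at 373 and 353 CPM in them, against 354 CPM in the WT heart.

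With the table set as a covariate in the fit on all 22 hearts, a setting chosen after seeing the data, Ppif still passed in the averaged comparison (log2 change 0.28, adjusted p = 0.0121). Vdac1 and Micu2 did not, at 0.24 (adjusted p = 0.0573) and -0.19 (adjusted p = 0.167). In that fit Ppif was the only member to pass in KO against WT hearts with the Ant1 vector, and none passed in KO ND6 against WT hearts with either vector. In limma voom on single libraries with the table as a covariate, Ppif and Vdac1 passed in the averaged comparison and Micu2 did not (-0.21, adjusted p = 0.135). There Ppif was the only member to pass with the Ant1 vector in KO and in KO ND6 against WT hearts. Vdac1 was the only one in KO ND6 against WT hearts with the control vector.

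**Figure D3:**
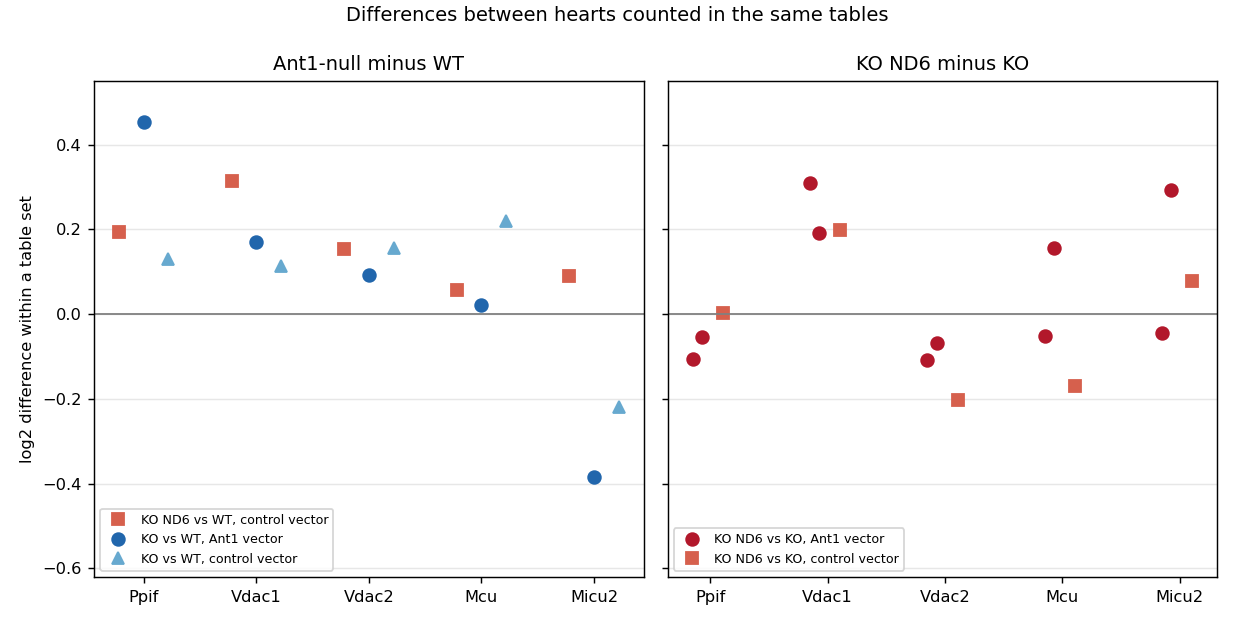
Difference in mean log2 CPM between hearts counted in the same set of tables (vertical axis). Ant1-null minus WT is on the left and KO ND6 minus KO on the right, and each symbol is 1 set. Vdac1 lies above 0 in all 6 sets, by 0.11 to 0.31, and Micu2 against WT is split, at -0.39, -0.22 and 0.09.

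The addition of the ND6 change to the loss of Ant1 was read from KO ND6 against KO hearts. No member passed with the control vector (0 of 5, where 1.06% of all genes passed) or with the Ant1 vector (0 of 5, where 1.66% passed), and DESeq2 called 0 in both. In edgeR 2 members, Mcu and Vdac1, had an unadjusted p under 0.05 with the control vector and 1, Vdac1, with the Ant1 vector. So did 2231 of all 15403 genes with the control vector and 2534 with the Ant1 vector. Vdac1 had log2 changes of 0.20 ± 0.09 with the control vector (1.15-fold, adjusted p = 0.334) and 0.25 ± 0.09 with the Ant1 vector (1.19-fold, adjusted p = 0.136). With the Ant1 vector the lowest KO ND6 heart was at 836 CPM and the highest KO heart at 766 CPM.

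KO ND6 and KO hearts met in 3 sets of tables, and in these Vdac1 was 1.15-fold higher (KO ND6 hearts 20 and 21 against KO hearts 36 and 38), 1.24-fold higher (heart 37 against heart 27) and 1.14-fold higher (hearts 5 and 8 against hearts 21 and 22). Averaged over both vectors, a comparison added after these values were seen, the log2 change of Vdac1 was 0.23 ± 0.06 (1.17-fold, unadjusted p = 0.00197) and its adjusted p of 0.0705 missed the threshold, in a comparison where 1.87% of genes passed. With the table set as covariate the change was 0.21 (1.16-fold, adjusted p = 0.075), where 5.97% of genes passed. Mcu went the other way with the control vector, with 48.3, 48.3 and 44.2 CPM in KO ND6 hearts and 53.2 to 55.7 CPM in KO hearts. Its log2 change was -0.22 ± 0.10 (adjusted p = 0.319).

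The vectors were compared by setting Ant1 vector against control vector hearts of 1 genotype. Slc25a4 was at 197.4, 197.5, 241.4 and 174.3 CPM in Ant1 vector KO hearts 20, 21, 22 and 27. Ant1 vector WT hearts had 8968.3 to 10258.5 CPM, so these comparisons do not show the outcome of restoring Ant1 to its WT level. Heart 8, at 0.732 CPM of Slc25a4, is counted among the Ant1 vector KO ND6 hearts. No member passed in KO ND6 hearts (0 of 5, where 2.53% of genes passed), in KO hearts (0 of 5, where 5.47% passed) or in WT hearts (0 of 5, where 0.117% passed), and DESeq2 called 0 in each. In edgeR an unadjusted p under 0.05 was reached by 1, 2 and 2 members in these comparisons, and by 3008, 3351 and 1795 of all 15403 genes. The log2 change of Vdac1, Ant1 over control vector, was 0.29 ± 0.09 in KO ND6 hearts (adjusted p = 0.0943) and 0.24 ± 0.09 in KO hearts (adjusted p = 0.118). In WT hearts the change was 0.09 ± 0.09 (adjusted p = 0.755).

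In KO hearts Mcu was 43.6, 40.4, 42.2 and 54.9 CPM with the Ant1 vector and 55.6, 53.2 and 55.7 CPM with the control vector. The log2 change was -0.27 ± 0.10 (adjusted p = 0.0952), and it passed without hearts 27 and 37 (-0.38, adjusted p = 0.00452). Under 14 of 16 alternatives it did not pass, with adjusted p up to 0.224. In WT hearts Micu2 was at 90.1 to 109.6 CPM with the Ant1 vector and at 71.1 to 85.1 CPM with the control vector. Its log2 change was 0.36 ± 0.12 (1.28-fold, unadjusted p = 0.00691, adjusted p = 0.24). No set of tables held hearts of both vector groups in 1 genotype, so vector and table cannot be told apart in these comparisons. Hearts 61 and 91, which are in neither group but had Slc25a4 at 169 and 151 CPM, shared a set with KO ND6 control vector heart 22, at 0.851 CPM. In them Vdac1 was at 737 and 794 CPM, against 724 CPM in heart 22, and Micu2 at 79.3 and 78.8 CPM, against 82.9 CPM.

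Whether the vector difference depended on genotype was tested as an interaction, the vector change in null hearts minus that in WT hearts. No member passed for KO ND6 (0 of 5, where 0.273% of genes passed) or for KO (0 of 5, where 0.5% passed), DESeq2 called 0, and 1 member, Micu2, had an unadjusted p under 0.05 in each. Of all 15403 genes, 1615 had an unadjusted p under 0.05 for KO ND6 and 2259 for KO. The Micu2 interactions were -0.40 ± 0.18 for KO ND6 (adjusted p = 0.424) and -0.37 ± 0.17 for KO (adjusted p = 0.324). Leaving out KO ND6 hearts 5 and 8 brought the first to -0.78 with an adjusted p of 0.049, with heart 37 then standing alone for its group.

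Across the 22 hearts Ppif and Micu2 ran against each other, with a Pearson correlation of log2 CPM of -0.794, while Ppif and Mcu ran together at 0.666 and Mcu and Micu2 were at -0.591. The correlation of Vdac1 was 0.00766 with Vdac2 and 0.32 with Ppif. These are descriptions over hearts that share genotype, vector and library tables, and hearts 27 and 37 sit at the low Micu2 end while the WT Ant1 vector hearts sit at the high end.

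**Figure D4:**
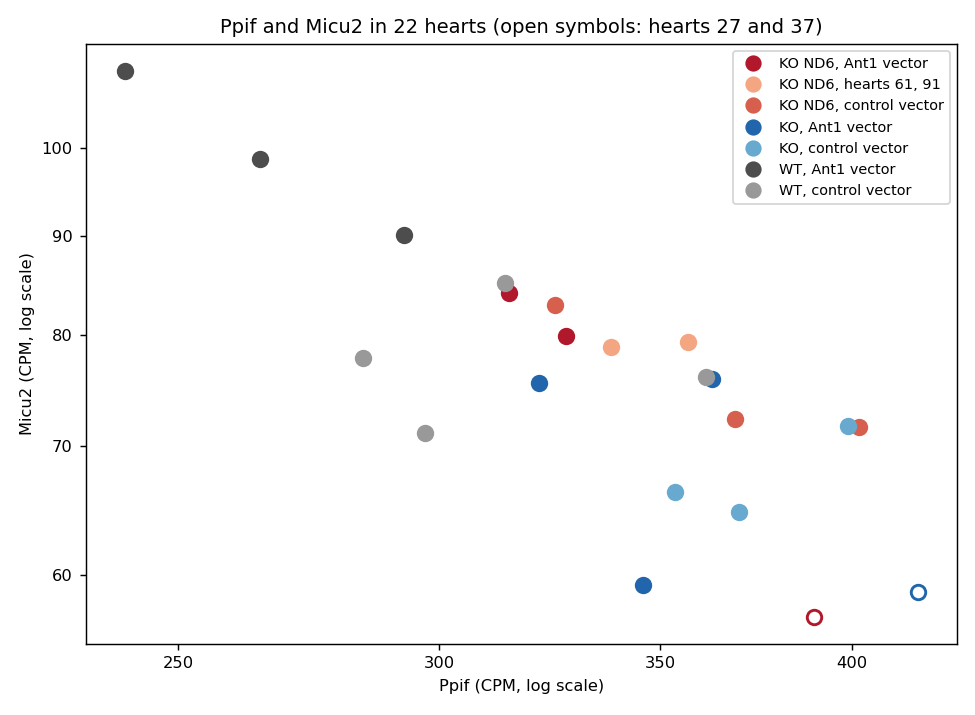
Ppif (horizontal) and Micu2 (vertical) in CPM on log scales in 22 hearts, coloured by genotype and vector. The 3 WT Ant1 vector hearts lie at the top left, with Micu2 from 90.1 to 109.6 CPM, and hearts 27 and 37 (open) at the lower right, with Micu2 at 58.8 and 57.1 CPM.

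Of 9618 genes averaging at least 5 CPM, those most like each member, among the genes reported here, over the 22 hearts by Pearson correlation of log2 CPM were not other members. For Ppif they were Gucd1 (0.882), Rpap3 (0.88) and Sirt2 (0.861), and for Vdac1 Rwdd1 (0.905), Eif4e3 (0.885) and Cbr1 (0.883). For Vdac2 they were Atp6v1c1 (0.907), 1110065P20Rik (0.901) and Prkrip1 (0.893). For Mcu they were Rab3gap1 (0.873) and Nprl3 (0.832), and for Micu2 Kbtbd2 (0.863), 1810026B05Rik (0.832) and Slc35d1 (0.819).

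Around the uniporter, 8 other genes of the complex and its regulators were tested. In Ant1-null against WT hearts, averaged over groups, 2 of 8 rose and 2 of 8 fell, where 15.6% of all genes rose and 14.5% fell, with a median log2 change of -0.01 against -0.02 over all genes. Afg3l2, a subunit of the matrix protease that removes unassembled uniporter subunits, rose 1.33-fold (adjusted p = 4.37e-05), and Mcur1, a scaffold of the uniporter, rose 1.17-fold (adjusted p = 0.00738). Slc25a23, an ATP-Mg/phosphate carrier that binds Mcu, fell by 0.25 on the log2 scale (adjusted p = 0.0165), and Yme1l1, a protease facing the space between the membranes, fell by 0.16 (adjusted p = 0.0445). Micu3, Smdt1 (EMRE, the subunit that couples Mcu to its gatekeepers), Ghitm and Ccdc109b (Mcub, the pore's inhibitory relative) did not pass. Group means were only 0.251 to 0.595 CPM for Ccdc109b and 1.42 to 2.05 CPM for Micu3, which limits what their tests could detect.

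Mcur1 was highest in control vector KO hearts, at 77.7 ± 8.19 CPM (n = 3), against 54.5 ± 3.75 CPM in control vector KO ND6 hearts, 57.6 ± 4.93 CPM in Ant1 vector KO hearts and 55.4 ± 1.85 CPM in control vector WT hearts (SD). It rose 1.40-fold in control vector KO against WT hearts (adjusted p = 0.00125), fell by 0.51 in control vector KO ND6 against KO hearts (adjusted p = 0.0145), and fell by 0.43 in KO hearts with the Ant1 against the control vector (adjusted p = 0.0129). Mcu had its highest group mean in the same hearts.

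Among 10 genes of mitochondrial calcium and ion exchange, 2 rose and 1 fell in the averaged comparison (15.6% and 14.5% of all genes), with a median log2 change of -0.03. Letm1, an inner membrane cation/proton exchanger, rose 1.43-fold (adjusted p = 1.87e-06) and passed in each of the 4 genotype comparisons, by 1.62-fold in Ant1 vector KO ND6, 1.34-fold in control vector KO ND6, 1.30-fold in Ant1 vector KO and 1.48-fold in control vector KO hearts against WT. Stoml2, an inner membrane scaffold protein, rose 1.15-fold (adjusted p = 0.0337), and Letm2, a relative of Letm1, fell by 0.51 (adjusted p = 0.0191). Slc25a25, a calcium-regulated ATP-Mg/phosphate carrier, averaged 6.59 ± 0.829 CPM in Ant1 vector KO ND6 hearts (n = 3), against 1.91 ± 0.266 CPM in control vector KO ND6, 2.49 ± 0.520 CPM in Ant1 vector KO and 3.05 ± 0.494 CPM in Ant1 vector WT hearts. It was 3.44-fold higher than with the control vector (adjusted p = 0.00242), 2.63-fold higher than in KO hearts (adjusted p = 0.00936) and 2.15-fold higher than in WT hearts (adjusted p = 0.0115).

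Of 23 candidates for the permeability transition pore, 17 were on the panel, and 2 rose and 2 fell in the averaged comparison (15.6% and 14.5% of all genes), with a median log2 change of 0.02. Slc25a4 itself, the gene removed, is 1 of those that fell. C1qbp, a matrix chaperone, rose 1.27-fold (adjusted p = 2.46e-05), with 281 ± 11.0 CPM in Ant1 vector KO ND6 hearts and 264 ± 12.1 CPM in Ant1 vector KO hearts, against 199 ± 6.59 CPM in Ant1 vector WT hearts. The ATP synthase subunits went apart: Atp5j2 (subunit f) rose 1.13-fold (adjusted p = 0.00972) and Atp5j (coupling factor F6) fell by 0.25 (adjusted p = 0.00191), and the other ATP synthase genes tested did not pass.

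Among 16 partners of VDAC at the outer membrane, 5 rose and 0 fell in the averaged comparison, where 15.6% of all genes rose and 14.5% fell, with a median log2 change of 0.08. Those with the smallest adjusted p were Gsk3b, a kinase that acts on VDAC (1.27-fold, adjusted p = 6.36e-05), the survival proteins Mcl1 (1.18-fold, adjusted p = 0.00153) and Bcl2 (1.43-fold, adjusted p = 0.00745), and Ckmt2, the mitochondrial creatine kinase of striated muscle (1.17-fold, adjusted p = 0.00362). Bcl2l1, another survival gene of the list, did not pass (log2 change -0.192, adjusted p = 0.362). In control vector KO ND6 against WT hearts Bcl2l1 was lower (0.571-fold, adjusted p = 0.0353). Hk1, a hexokinase that docks on VDAC, averaged 182 ± 14.5 CPM in control vector KO hearts, against 120.4 ± 1.47 CPM in control vector KO ND6, 123 ± 14.2 CPM in Ant1 vector KO and 121 ± 5.59 CPM in control vector WT hearts. It rose 1.51-fold against WT (adjusted p = 7.54e-05) and fell by 0.60 in KO ND6 against KO hearts (adjusted p = 0.00251), the pattern Mcur1 showed.

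Of 10 other cyclophilins tested, Ppil2 rose (1.25-fold, adjusted p = 0.000136) and Ppil4 fell by 0.24 (adjusted p = 0.00463) in the averaged comparison, 1 of 10 in each direction against 15.6% and 14.5% of all genes. Ppil2 and Ppil4 are nuclear members of the family, unlike the mitochondrial product of Ppif.

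**Figure D5:**
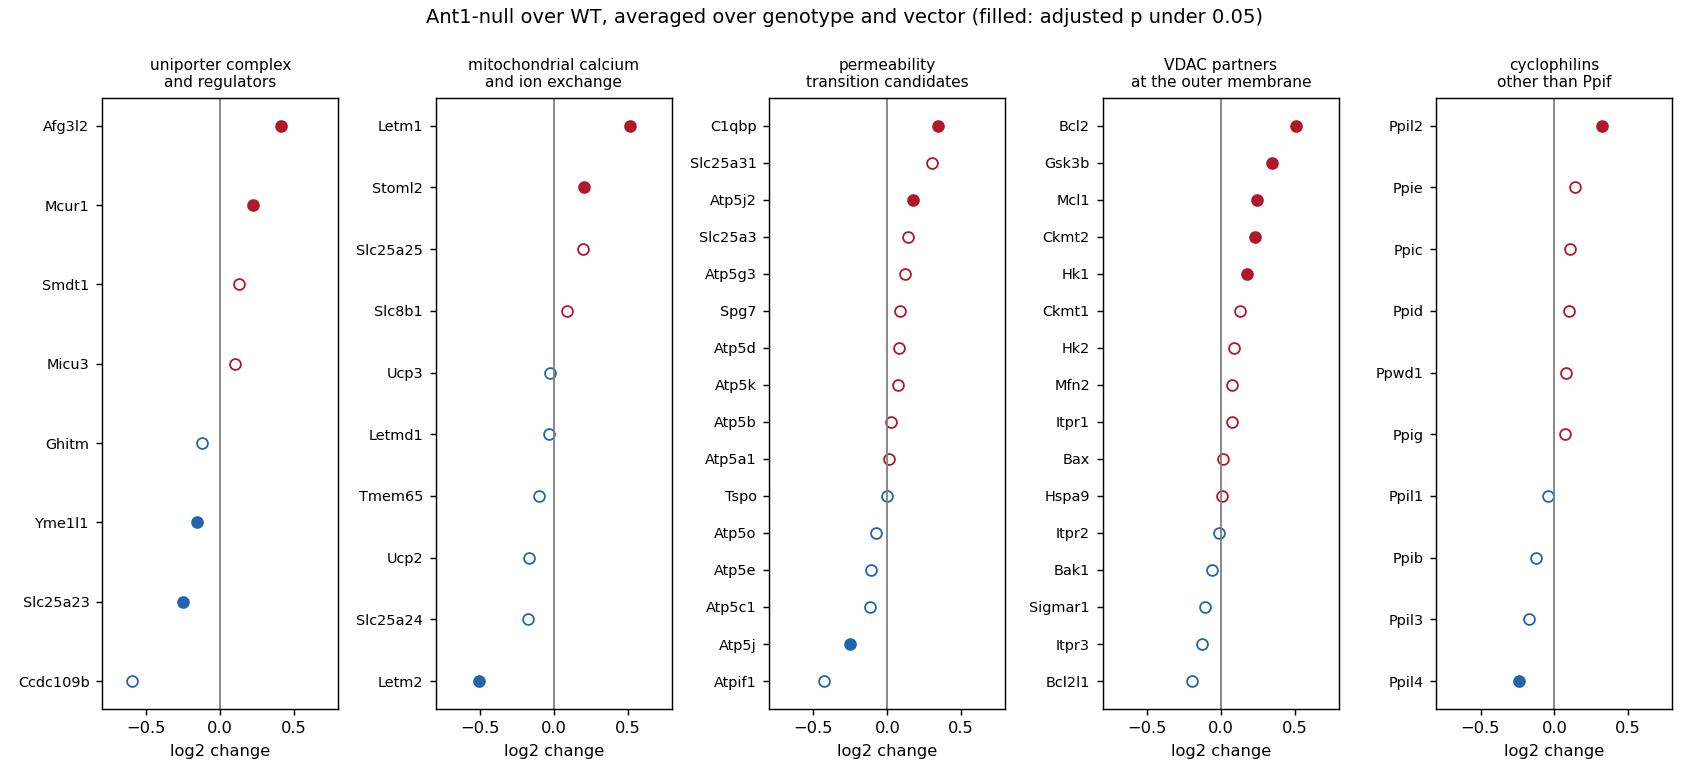
Log2 change of Ant1-null over WT hearts, averaged over genotype and vector, for the genes of 5 lists (Slc25a4 not drawn); filled points passed an adjusted p of 0.05. In the panel of VDAC partners all 5 filled points lie right of 0, up to 0.51 for Bcl2, whereas the other panels hold filled points on both sides.

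Other cell types and mitochondrial content were read from marker lists beside these values. The counts that follow stand against 15.6% of all genes higher and 14.5% lower. In the averaged comparison 0 of 9 fibroblast markers rose and 5 fell, their summed level being 2162 to 2557.5 CPM in Ant1 vector KO ND6, 2264 to 2459 CPM in control vector KO ND6, 2308 to 2646 CPM in Ant1 vector KO and 1968 to 2379.8 CPM in control vector KO hearts, against 2645 to 2791 CPM in Ant1 vector and 2952 to 3111 CPM in control vector WT hearts. Of 7 endothelial markers 4 rose and 1 fell in that count, and the sum was higher with the Ant1 vector, at 734 to 880.0 CPM in KO ND6 and 717 to 744 CPM in KO hearts, against 599.9 to 653 CPM and 579 to 595 CPM with the control vector, and at 602 to 688 CPM in WT hearts, against 538 to 584 CPM. Tested between vectors, 2 of the 7 were higher with the Ant1 vector in KO ND6, 1 in KO and 0 in WT hearts. Of all genes 2.53%, 5.47% and 0.117% passed in these comparisons, where vector and library table cannot be told apart. In the averaged comparison, of 12 cardiomyocyte markers, all detected in every heart with a sum of 76970.2 to 96300.3 CPM, 4 rose and 1 fell, and of 6 macrophage markers tested 0 rose and 4 fell. The untested C1qa did not exceed 0.21 CPM in any heart. The sum of 11 mitochondrial mass genes overlapped between genotypes, at 14425 to 17051 CPM in Ant1-null groups and 13687 to 16829.9 CPM in WT groups, and 2 of these genes rose and 1 fell. Their median log2 change in the averaged comparison was 0.12, against 0.16 for the 5 members and -0.02 over all genes tested. In whole heart RNA fewer cells of a type and less RNA per cell cannot be told apart, and the part of these lists in the members' differences was not tested.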

How the data were processed

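The values deposited by the authors are unnormalised counts of reads on each amplicon, from Ion AmpliSeq libraries sequenced on an Ion Torrent S5, per the labels' protocols. The genome build is mm10, per the submitters' processing notes. The sources used here do not name the aligner or counter. The 14 tables hold 8 libraries each, and 27 symbols that had turned into dates were restored from the amplicon names.

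Counts of libraries with the same number, genotype and code in their titles were summed and treated as 1 heart. Libraries 80a and 80b were left out of these sums. All 22 hearts in 7 groups entered 1 edgeR 4.0.16 fit (R 4.3.3, filterByExpr, TMM, quasi-likelihood F-test, no covariates), with p-values adjusted by Benjamini-Hochberg over 15403 genes and 0.05 as the threshold. CPM are TMM-scaled, the factors lying between 0.959 and 1.06, and log2 values use a prior count of 2. Amplicons differ in efficiency, so levels were not compared between genes. The test was tried on simulated counts. The members and gene lists were chosen with earlier results of these data known. Text names the 5 members throughout, Slc25a4, up to 4 genes per list and comparison with the smallest adjusted p among those passing, and the 3 genes most correlated with each member over hearts; Hk1 and the non-passing uniporter genes are named besides. A gene of the uniporter list and a gene correlated with Mcu are not reported here. Alternatives were other size factors, no filter, DESeq2 1.42.0, only the compared groups, other placements of hearts 61 and 91 and of libraries 80a and 80b, hearts left out, and limma 3.58.1 voom on libraries with the table as covariate (within-heart correlation 0.176). The 3 single-nucleus samples and Vdac3 were not analysed here. Dixon's criterion flagged no heart in the 10 sets of values tested. These sets were the 5 members in the groups of 4 hearts, Ant1 vector KO and control vector WT. The smaller groups were not tested for an outlying heart, so nothing is said of them here.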

Additional observations from a re-analysis of the deposited data

How the results depend on the processing

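The number of members past the threshold moved under some alternatives. In Ant1-null against WT hearts averaged over groups it was 3, and 1 with the table set as covariate; leaving out single hearts gave 3 to 4. In KO against WT hearts with the control vector it was 0, 2 without hearts 27 and 37 and 1 with the library table as covariate. In KO ND6 against WT hearts with the control vector it was 1, and 0 with no low-count filter or with the table set as covariate, single hearts left out giving 0 to 1. With the Ant1 vector KO against WT had 2, and 1 with either table covariate, with 1 to 2 when single hearts were left out. KO ND6 against WT had 3 with the Ant1 vector, 1 with only the compared groups in the fit, without hearts 27 and 37 or with the library table as covariate, and 0 with the table set as covariate, with 1 to 3 when single hearts were left out. For Ant1 against control vector in KO hearts it was 0, and 1 without hearts 27 and 37, with 0 to 1 when single hearts were left out. The KO ND6 interaction had 0, and 1 without hearts 5 and 8. The cause of these shifts was not tested. No member that passed changed direction, and 38 of 1165 values, all of members that had not passed, changed sign. Counts over all genes moved more in the smaller comparisons, from 46 to 1948 for KO ND6 against KO with the control vector and from 35 to 1820 with the Ant1 vector. No paired analysis was possible because the groups compared share no title numbers. The fit with the table set leaves few hearts per set, and it could not be made for the vector comparisons. Mcu and Micu2 rest on 814 to 3124 reads per heart, the fewest of the 5 genes, and counting error is part of their spread between hearts.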

Other observations

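Libraries 80a and 80b come from WT mice and carry a vector label that goes against their title code, so they were placed in no group. They had 301.7 and 311 CPM of Ppif, 703 and 633 CPM of Vdac1, 361 and 361 CPM of Vdac2, 41.9 and 49.9 CPM of Mcu, and 86.1 and 102.7 CPM of Micu2. Hearts 27 and 37 had repeat libraries that ranged, for Ppif, from 312.5 to 601 CPM in heart 27 and from 286 to 551 CPM in heart 37, and for Micu2 from 14.5 to 89.3 CPM in heart 27 and from 34.5 to 73.7 CPM in heart 37. Vdac1 in heart 27 ranged from 481 to 1146 CPM over its 8 libraries, against 789 to 978.5 CPM over the 8 libraries of heart 37.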
